A study of Mus musculus with 9 samples.

Results

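The oxidative phosphorylation subunits were 78 genes, of 12393 genes with a probe set that carried a single gene symbol, and 74 of them were bright enough to be tested. Membership was set by symbol alone, with no measured value in the rule: symbols that begin with Nduf followed by a subunit letter and number, Sdha to Sdhd, and symbols that begin with Uqcr, Cox4 to Cox8 or Atp5. The brightest probe set over the 9 arrays stood for each gene. By the complex of their name, 33 of 33 members of complex I, 4 of 4 of complex II, 8 of 8 of complex III, 12 of 16 of complex IV and 17 of 17 of complex V were tested. The members were measured in liver RNA of male mice aged 2 months, and the question was how 3 mouse models compare, complex by complex. What sets the models apart is Cpr, the NADPH-cytochrome P450 reductase, which hands electrons to the P450 enzymes of the endoplasmic reticulum and is not part of the mitochondrial chain. Cpr-lox was the control, Cpr-low carries a lowered Cpr level, and liver-Cpr-null lacks Cpr in the liver. In the published lines, Cpr-lox mice carry Cpr alleles flanked by loxP sites, the Cre recombinase of liver-Cpr-null is driven by the albumin promoter and so acts in hepatocytes, and the Cpr-low allele acts in the whole animal. All 3 models share a mixed background of the C57BL/6 and 129/Sv strains. RNA from 8 or 9 mice per model entered 3 pools, and each pool was measured on 1 Affymetrix MOE430A array, a slide of short oligonucleotide probes. No source used here says whether a mouse entered more than 1 pool, and p-values reflect the spread from pool to pool only.

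Oxidative phosphorylation couples the oxidation of NADH and succinate to the synthesis of ATP in the inner mitochondrial membrane. Complexes I and II pass electrons to coenzyme Q, complex III passes them on to cytochrome c, complex IV passes them to oxygen, and complex V, the ATP synthase, uses the proton gradient that complexes I, III and IV build. Hepatocytes are rich in mitochondria and draw on this system for gluconeogenesis, urea synthesis and fatty acid oxidation. The subunits that mitochondrial DNA encodes were not analysed here.

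Array and tissue checks came before the members. Deposited median signals lay between 171 and 179, and the signals were scaled to a common 2% trimmed mean. Values below are these scaled signals, and log2 fold changes are of signal + 16, which understates changes of dim genes. The 3 Cpr-lox arrays and Cpr-low pool 1 carry a first hybridization date and the other arrays a second, per the file headers, although the time stamps of all 9 lay within 3.22 hours. With that date as a block, any value against Cpr-lox hinges on Cpr-low pool 1. The control cannot be told apart from the scan date, since the Cpr-lox arrays alone carry the first one. The ratio of 3' to 5' signal for beta-actin, a sign of RNA or labelling quality, was 1.62 to 1.99 on the liver-Cpr-null arrays, 1.23 to 1.43 on the Cpr-lox arrays and 1.17 to 1.26 on the Cpr-low arrays. The same ratio for Gapdh ran the other way, at 2.34 to 2.48, 2.6 to 2.79 and 2.36 to 2.72 in that order. All 9 hepatocyte markers on the array were bright enough to be tested, and 0 of 4 adipocyte markers were. The summed signal of the hepatocyte markers, of which 3 were called lower in liver-Cpr-null and 1 in Cpr-low than in Cpr-lox, was 116303 to 120731 in liver-Cpr-null, 130352 to 135586 in Cpr-lox and 126005 to 133479 in Cpr-low. Of 10 Kupffer cell markers, 8 were called higher in liver-Cpr-null than in Cpr-lox, with a summed signal of 9228 to 11953 against 6736 to 7258, and of 6365 to 7062 in Cpr-low. Of 2 tested erythroid markers, 1 was called higher in Cpr-low than in Cpr-lox, and the summed signal of the erythroid markers was 1623 to 1871 in Cpr-low, 1014 to 1222 in Cpr-lox and 1233 to 1353 in liver-Cpr-null. In bulk liver, fewer cells of a type and less RNA per cell cannot be told apart, and the part of these differences in the results below was not tested.

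Few members differed between the models. Against Cpr-lox, liver-Cpr-null had 2 of 74 members called higher and 0 called lower in limma's test at an adjusted p under 0.05, against 7.1% of all 8879 genes tested (3.66% higher and 3.44% lower). Cpr-low had likewise 2 called higher and 0 lower, against 5.79% of all genes (2.31% higher and 3.48% lower). Between the models, liver-Cpr-null against Cpr-low, 0 members were called higher and 2 lower, against 8.42% of all genes (4.66% higher and 3.76% lower). Each of these counts is 2.7% of the members, below the share of all genes called. At an unadjusted p under 0.05, limma's counts were 9 higher and 3 lower for liver-Cpr-null against Cpr-lox, 12 and 2 for Cpr-low against Cpr-lox, and 3 and 5 between the models. In all, 5 members were called in at least 1 comparison. They were Atp5b and Atp5h of the ATP synthase, Uqcrc1 of complex III, Ndufs5 of complex I and Cox8c of complex IV. Both comparisons with Cpr-lox use the same 3 control arrays.

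In the fit with no block, the sizes of the differences were small. The intervals below rest on the spread between pools in that fit and take no account of the hybridization or scan date. Fitted folds over the 74 members ran from 0.868 to 1.29 in liver-Cpr-null against Cpr-lox, from 0.834 to 1.36 in Cpr-low against Cpr-lox, and from 0.777 to 1.22 between the models. The 95% interval of the fold, not adjusted over genes, lay inside 1.5-fold in either direction for 74 of 74 members in the first comparison, for 73 in the second and for 74 in the third. The exception was Ndufs5 in Cpr-low. Of all 8879 genes tested, the intervals of 8290, 8328 and 8225 lay inside 1.5-fold in the same order. Inside 1.25-fold lay the intervals of 58, 57 and 63 members, and of 5872, 5715 and 4568 of all genes. The median standard error of a member's log2 fold change was 0.08.

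**Figure D1:**
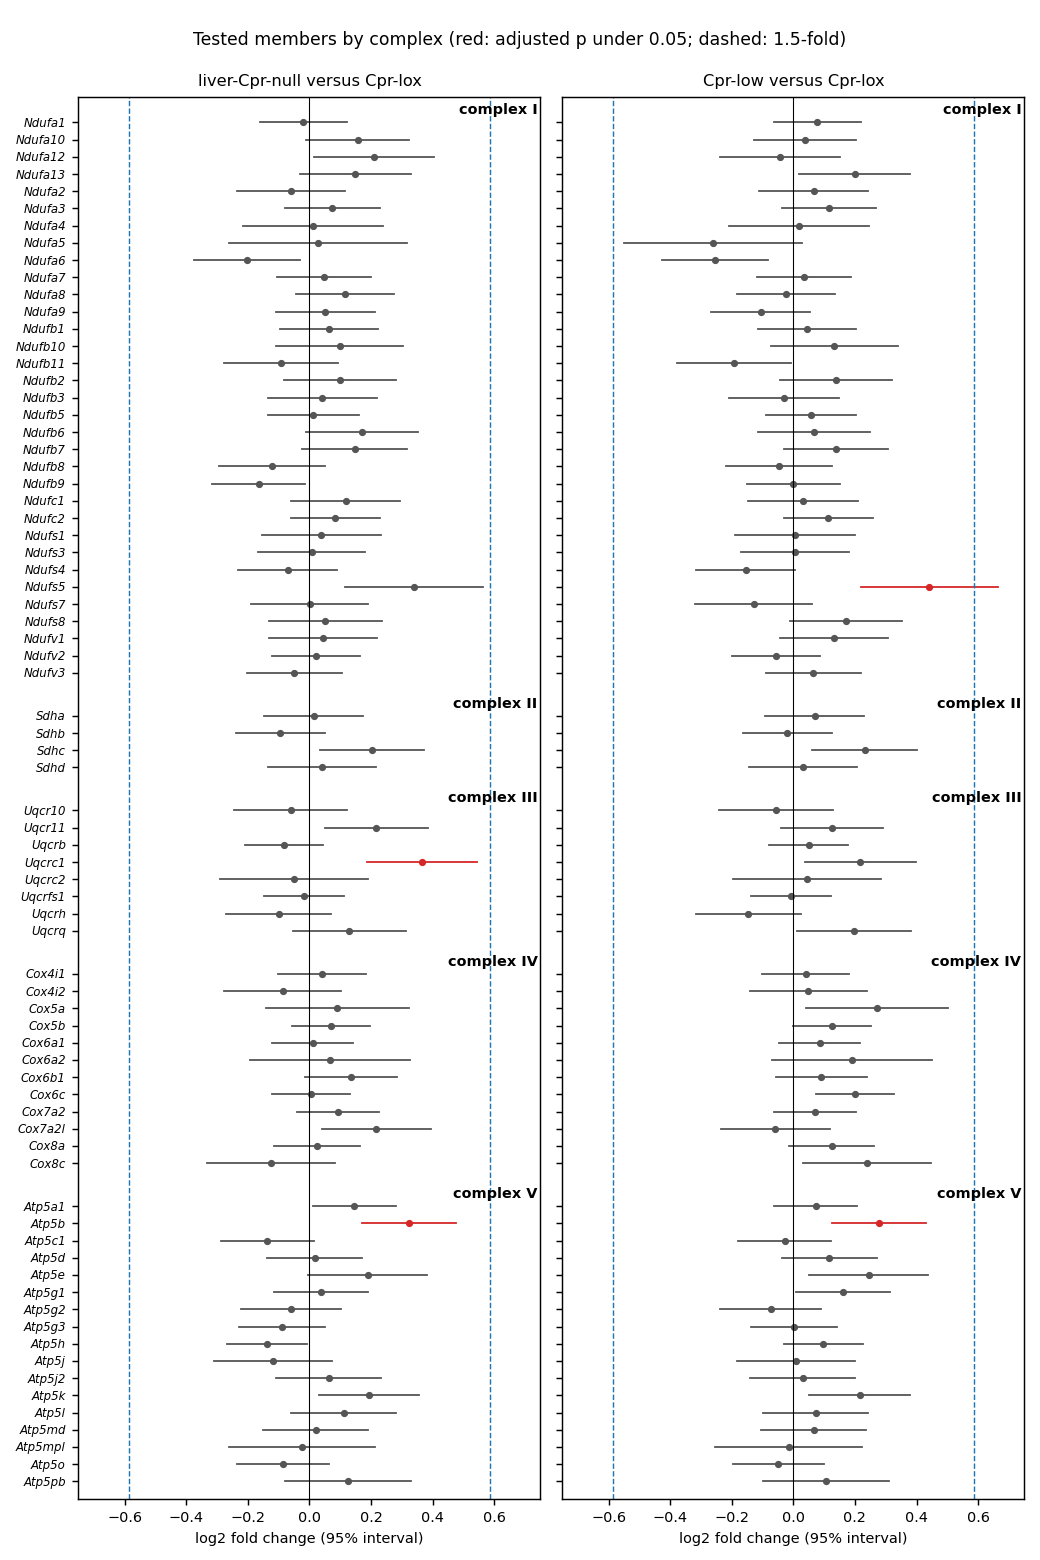
Log2 fold change of each of the 74 tested members with its 95% interval, by complex, for liver-Cpr-null (left) and Cpr-low (right) against Cpr-lox. Red marks an adjusted p under 0.05 and the dashed lines mark 1.5-fold, which 1 interval crosses, that of Ndufs5 in Cpr-low.

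The promoters of the members hold sequence features that the choice by symbol did not use. Of the 78 members, 64 had a promoter in the RefSeq table used here (GRCm38.p6, from 250 bases before to 50 bases after the start of the gene). Both strands were searched for sites of factors known to act on nuclear genes of mitochondrial proteins. The core GCGCATGC of the NRF-1 site was found in 9 of the 64 promoters (14.1%), against 3.05% of the 27025 genes in the table and 3.94% of its 17492 protein-coding genes. The YY1 core AANATGGC, whose letters hold an ATG, was found in 15 (23.4%, against 6.96% of all and 7.46% of protein-coding genes), of which 11 belong to complex I and 4 to complex V. The ETS site CCGGAAGT, which GABPA binds, was found in 5 (7.81%, against 4.31% of all and 5.69% of protein-coding genes), and the estrogen-related receptor site TNAAGGTCA in 2 (3.13%, against 1.43% and 1.19%). At least 1 of these was found in 30 members (46.9%, against 14.6% and 16.7%). A match is a run of letters and not a measured binding site.

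The 9 promoters with the NRF-1 core are shown as 30 bases around the match, read on the strand of the gene, because this core was found in members of all 5 complexes. Capitals mark the matched letters. In 4 of them, Uqcrc1, Cox6a1, Atp5g2 and Atp5k, the core is met on both strands in overlapping letters, which gives a run of 10 capitals.
Ndufa6, chr15:82354356-82354385, minus strand: tccgcggtagaGCATGCGCattgcagagcc
Ndufa8, chr2:36049328-36049357, minus strand: tcgctggagacGCATGCGCagatggtaccg
Sdhb, chr4:140961206-140961235, plus strand: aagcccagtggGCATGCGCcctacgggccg
Uqcr11, chr10:80406807-80406836, minus strand: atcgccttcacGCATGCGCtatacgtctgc
Uqcrc1, chr9:108936668-108936697, plus strand: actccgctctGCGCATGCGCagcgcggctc
Cox6a1, chr5:115349101-115349130, minus strand: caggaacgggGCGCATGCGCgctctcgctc
Atp5g2, chr15:102671070-102671099, minus strand: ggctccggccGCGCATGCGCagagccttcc
Atp5k, chr5:108434430-108434459, minus strand: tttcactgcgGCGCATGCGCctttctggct
Atp5l, chr9:44920963-44920992, minus strand: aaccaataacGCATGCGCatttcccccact

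Of the 5 called members, Uqcrc1 stands in that set, with its match at bases 31 to 40 after the start of the gene. Atp5b and Atp5h held a match to another motif, shown in capitals in the same way, YY1 in Atp5b at bases 18 to 25 after the start and ETS in Atp5h, where its first base lies 39 bases before the start. Ndufs5 held none of the 4 motifs in this window, and Cox8c was not among the 64 members searched.
Atp5b, chr10:128083313-128083342, plus strand: acccggattccGCCATGTTgagtcttgtgg
Atp5h, chr11:115419940-115419969, minus strand: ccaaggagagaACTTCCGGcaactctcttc

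Complex I takes electrons from NADH in a peripheral arm and pumps protons through a membrane arm. Of its 33 members, 0 were called in liver-Cpr-null against Cpr-lox (limma; at an unadjusted p under 0.05, 2 were higher and 2 lower), 1 was called higher in Cpr-low, and 0 were called between the models (2 higher and 1 lower unadjusted). The median log2 fold change was 0.04 in liver-Cpr-null and 0.03 in Cpr-low against Cpr-lox, beside -0.04 and 0.04 over all genes tested, and the Cpr-low value turned to -0.015 with signals scaled to a common median and to -0.0042 with signals as deposited. Leaving out single pools gave 0.010 (without liver-Cpr-null pool 3) to 0.071 (without liver-Cpr-null pool 1) in liver-Cpr-null and 0.0093 (without Cpr-low pool 2) to 0.056 (without Cpr-low pool 1) in Cpr-low. The 1 call in Cpr-low is 3.03% of the complex I members, beside 5.79% of all genes tested. The member called was Ndufs5, a small accessory subunit on the intermembrane-space side of the membrane arm. Its signals were 1342, 1174 and 1242 in Cpr-lox pools 1 to 3, 1865, 1698 and 1563 in Cpr-low, and 1422, 1529.6 and 1836 in liver-Cpr-null. All 6 arrays of the altered models thus lay above the 3 control arrays, and the altered models overlapped each other. Ndufs5 rose in Cpr-low by a log2 fold change of 0.44 ± 0.10 (SE, n = 3 pools per model; limma, adjusted p = 0.0233), and its value in liver-Cpr-null was 0.34 ± 0.10 (limma, adjusted p = 0.0717). Its signal rests on 1 probe set, and RefSeq names a pseudogene of it. Leaving out Cpr-lox pool 2, Cpr-lox pool 3, Cpr-low pool 1 or Cpr-low pool 2 ended this call (limma, adjusted p = 0.111, 0.0628, 0.0933 and 0.0714).

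The core subunits of complex I that were measured had no call. In the peripheral arm, Ndufs1, Ndufs3, Ndufs7, Ndufs8, Ndufv1 and Ndufv2, which carry the flavin and iron-sulfur centres or their scaffold, had log2 fold changes of 0.00 to 0.05 in liver-Cpr-null and of -0.13 (Ndufs7) to 0.17 (Ndufs8) in Cpr-low against Cpr-lox. The 14 members of the peripheral arm had a median of 0.03 in liver-Cpr-null and -0.02 in Cpr-low, and the 18 of the membrane arm 0.09 and 0.06. Ndufa4, counted in complex I by its name alone, was placed in neither arm (0.01 ± 0.10 and 0.02 ± 0.10). The lowest complex I value in liver-Cpr-null was that of Ndufa6, an accessory subunit of the peripheral arm (-0.20 ± 0.08, adjusted p = 0.173), which also lay low in Cpr-low (-0.25 ± 0.08, adjusted p = 0.0917). The arrays of both altered models lay below the 3 Cpr-lox arrays for Ndufa6. Ndufa5, another accessory subunit of that arm, had the lowest value in Cpr-low (-0.26 ± 0.13, adjusted p = 0.340) and the highest of complex I between the models (0.29 ± 0.13, adjusted p = 0.191).

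Complex II, succinate dehydrogenase, is shared by the chain and the TCA cycle, and 0 of its 4 members were called in any of the 3 comparisons (limma; at an unadjusted p under 0.05, 1 was higher in each comparison with Cpr-lox and 0 between the models). Sdha, the flavoprotein, had log2 fold changes of 0.01 ± 0.07 in liver-Cpr-null and 0.07 ± 0.07 in Cpr-low. Sdhb, the iron-sulfur subunit, had -0.09 ± 0.07 and -0.02 ± 0.07. Sdhc, a membrane anchor, was the highest of the complex, with signals of 1591, 1573 and 1606 in Cpr-lox, 1995, 1811 and 1807 in Cpr-low and 1997, 1743.5 and 1767.5 in liver-Cpr-null. Its groups of altered and control arrays did not overlap, but its values of 0.20 ± 0.08 and 0.23 ± 0.08 did not pass the test (limma, adjusted p = 0.169 and 0.124). Sdhd, the other anchor, had 0.04 ± 0.08 and 0.03 ± 0.08.

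Complex III had 1 of 8 members called in liver-Cpr-null, 0 in Cpr-low and 0 between the models (limma; at an unadjusted p under 0.05, 2 were higher in each comparison with Cpr-lox, and 1 was lower between the models). The 1 call is 12.5% of its members, beside 7.1% of all genes tested. The member called was Uqcrc1, one of the core proteins on the matrix side of the complex. Its signals were 2339, 2132 and 2039 in Cpr-lox, 2503, 2613 and 2450.2 in Cpr-low and 3072, 2638 and 2688 in liver-Cpr-null. The 3 models did not overlap, with Cpr-low in the middle. Uqcrc1 rose in liver-Cpr-null by 0.36 ± 0.08 (limma, adjusted p = 0.0169), and its value in Cpr-low was 0.22 ± 0.08 (limma, adjusted p = 0.175). The call was lost without Cpr-lox pool 2, Cpr-lox pool 3 or liver-Cpr-null pool 1 (limma, adjusted p = 0.0637, 0.0641 and 0.0954).

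None of the 7 other members of complex III was called. Uqcrc2, the other core protein, had -0.05 ± 0.11 in liver-Cpr-null and 0.04 ± 0.11 in Cpr-low. Uqcrfs1, the Rieske iron-sulfur protein, had -0.02 ± 0.06 and -0.01 ± 0.06, with all 9 signals between 4747.5 and 4941. Uqcrb, the brightest probe set of the complex, had signals of 12916 to 15305 and a log2 fold change of -0.08 ± 0.06 in liver-Cpr-null. Higher values were those of Uqcr11, a small subunit, at 0.22 ± 0.08 in liver-Cpr-null and 0.13 ± 0.08 in Cpr-low (limma, adjusted p = 0.125 and 0.425), and of Uqcrq, another small subunit, at 0.13 ± 0.09 and 0.20 ± 0.09 (limma, adjusted p = 0.494 and 0.247). The arrays of Uqcr11 in liver-Cpr-null and those of Uqcrq in Cpr-low lay above the 3 Cpr-lox arrays. Uqcrh, the hinge protein, had the lowest values, -0.10 ± 0.08 and -0.15 ± 0.08. Over the 8 members the median was -0.03 in liver-Cpr-null and 0.05 in Cpr-low, and with signals scaled to a common median these turned to 0.0049 and -0.0020. Leaving out single pools gave -0.047 (without liver-Cpr-null pool 3) to -0.0017 (without Cpr-lox pool 1) in liver-Cpr-null and 0.029 (without Cpr-lox pool 3) to 0.063 (without Cpr-low pool 1) in Cpr-low.

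Complex IV, cytochrome c oxidase, had 0 of 12 tested members called against Cpr-lox in either model (limma; at an unadjusted p under 0.05, 1 was higher in liver-Cpr-null and 3 in Cpr-low). It had the highest median of the complexes in Cpr-low, 0.11, with 11 of 12 members above 0, and a median of 0.05 in liver-Cpr-null, which was 0.014 when Cpr-lox pool 3 was left out and to 0.024 when liver-Cpr-null pool 3 was. Between the models the median was -0.09, beside -0.08 over all genes tested, and 0.00075 with signals scaled to a common median. In Cpr-low the mean of the complex on each array, relative to the Cpr-lox mean, was 0.18, 0.08 and 0.09 on the log2 scale. Pool 1 was thus the highest of the 3, and the Cpr-lox arrays ran from -0.05 to 0.03. The mean over all genes tested was 0.063, 0.008 and -0.009 on the same Cpr-low arrays, so pool 1 was the highest there as well. Cox6c, an accessory subunit, had signals of 7322, 7530.2 and 7751 in Cpr-lox, 8565, 8603 and 8805 in Cpr-low and 7623, 7324 and 7729 in liver-Cpr-null. The Cpr-low arrays lay above all others for Cox6c, and its log2 fold change of 0.20 ± 0.06 against Cpr-lox missed the threshold (limma, adjusted p = 0.066). Cox4i1, the subunit that carries an ATP-binding site, had 0.04 ± 0.07 in both models, and Cox5a, next to it on the matrix side, had 0.09 ± 0.11 in liver-Cpr-null and 0.27 ± 0.11 in Cpr-low (limma, adjusted p = 0.742 and 0.196).

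**Figure D2:**
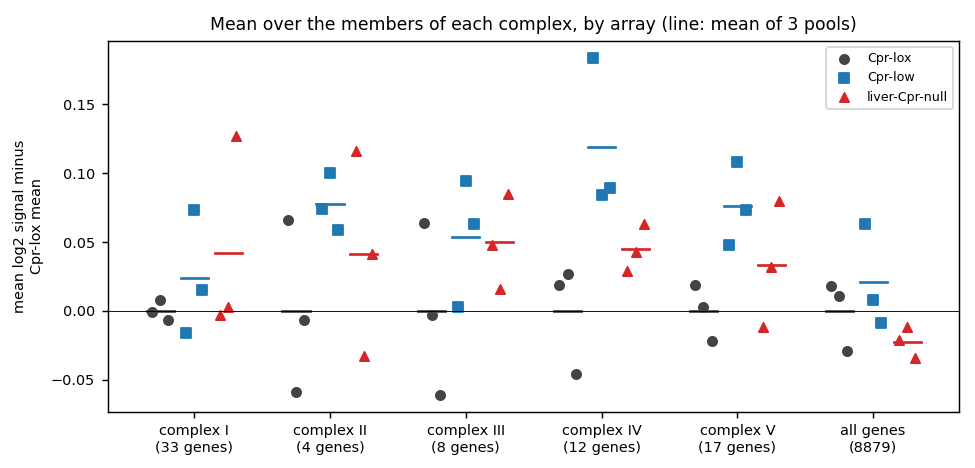
Mean log2 signal over the members of each complex, and over all genes tested, on each of the 9 arrays, minus the Cpr-lox mean. The Cpr-low arrays of complex IV lie at 0.08 to 0.18, above the 3 Cpr-lox arrays, and liver-Cpr-null pool 3 is the highest array of complex I, at 0.13.

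Several complex IV subunits come as isoforms that differ between tissues. The forms that predominate in liver gave bright signals: Cox4i1 7709 to 8808, Cox6a1 8262 to 9442, Cox6b1 7855 to 9679, Cox7a2 7213 to 8202 and Cox8a 3881 to 4508 over the 9 arrays. The probe sets of Cox6a2, the heart and muscle form, and of Cox4i2, known from lung, gave 203 to 322 and 138 to 179. Cox8c, known from testis, did not share these low signals, at 1221 to 1889 from 1 probe set. Cox7a1 and Cox8b, known from heart and muscle, and Cox6b2, known from testis, were among the 4 members too dim to be tested, with signals of 51.1 to 65.3, 93.4 to 117 and 66.3 to 140. The fourth was Cox7c, whose brighter probe set of 2 gave 43.3 to 49.6, near the lowest signals deposited, which were 25 and 26. Whether this probe set reports the Cox7c transcript was not tested. Another 7 probe sets, which carry several symbols, match the symbol rule and were not used. Without the filter on dim probe sets, Cox7a1 was lower in liver-Cpr-null than in Cpr-low by a log2 value of -0.21 ± 0.05 (limma, adjusted p = 0.0237), at these dim signals.

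Between the models, 1 of 12 tested members of complex IV was called lower in liver-Cpr-null (8.33%, against 8.42% of all genes tested). Cox8c, an isoform of subunit VIII that is known from testis, had signals of 1535, 1455 and 1292 in Cpr-lox, 1889, 1560.0 and 1618 in Cpr-low and 1221, 1403.5 and 1295 in liver-Cpr-null. The Cpr-low arrays lay above all arrays of the other models, which overlapped each other. The log2 fold change of liver-Cpr-null against Cpr-low was -0.36 ± 0.10 (limma, adjusted p = 0.0355). The call was lost without Cpr-low pool 1, the highest array, at -0.28 (limma, adjusted p = 0.116), and without liver-Cpr-null pool 1 or 3 (limma, adjusted p = 0.138 and 0.0907). Cox8c is measured by 1 probe set, and whether its signal in liver comes from this isoform was not tested.

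Cox7a2l matches the symbol rule but is known as an assembly factor of respiratory supercomplexes, which join complexes III and IV, and not as a subunit of complex IV. Its 3 probe sets had the same sign between the models. The brightest had 1695, 1746 and 1863 in Cpr-lox, 1859.5, 1699 and 1543 in Cpr-low and 2034.5, 2019.5 and 2116 in liver-Cpr-null. The liver-Cpr-null arrays lay above all others, and the log2 fold change against Cpr-low was 0.28 ± 0.08 (limma, adjusted p = 0.0576 over genes). Fitted one by one over 12384 probe sets, the dimmer probe sets passed, at 0.30 ± 0.07 (limma, adjusted p = 0.0213) and 0.32 ± 0.09 (limma, adjusted p = 0.0444), in a comparison where 8% of all probe sets were called. The brightest probe set passed as well with the hybridization date as a block, at 0.34 (limma, adjusted p = 0.0297). That value is the same as without Cpr-low pool 1. Over the 24 settings, the main one included, Cox7a2l passed between the models in 6. Of the 9 fits that leave out a pool, it passed in 1. With quantile normalization it had 0.20 (limma, adjusted p = 0.210).

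Complex V makes ATP in its F1 head, which is driven by a ring in the membrane. It had 1 of 17 members called higher in each model against Cpr-lox and 1 called lower between the models. Each count is 5.88% of its members, beside 7.1%, 5.79% and 8.42% of all genes tested. At an unadjusted p under 0.05, limma's counts were 3 higher and 1 lower in liver-Cpr-null against Cpr-lox. They were 4 and 0 in Cpr-low and 0 and 1 between the models. Atp5b, the catalytic beta subunit, was the member called in both models. Its signals were 6116, 5785 and 6482 in Cpr-lox, 7414, 7140.5 and 7729 in Cpr-low and 7951, 7127 and 7929.8 in liver-Cpr-null. The 6 arrays of the altered models lay above the 3 control arrays and overlapped each other. Atp5b rose by 0.32 ± 0.07 in liver-Cpr-null (limma, adjusted p = 0.0141), a fold of 1.25, and by 0.28 ± 0.07 in Cpr-low (limma, adjusted p = 0.0368), a fold of 1.21. These comparisons share the control arrays, and between the models the value was 0.04 ± 0.07 (95% interval -0.11 to 0.20).

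The calls for Atp5b lay near the threshold, while its log2 fold changes moved little when a pool was left out. In liver-Cpr-null the call was lost without Cpr-lox pool 2, liver-Cpr-null pool 1 or liver-Cpr-null pool 3, at values of 0.28, 0.30 and 0.30 (limma, adjusted p = 0.064, 0.0712 and 0.0612). In Cpr-low it was lost in 7 of the 9 fits that leave out a pool, with values of 0.24 to 0.32, and kept without Cpr-lox pool 3 (limma, adjusted p = 0.0353) and without liver-Cpr-null pool 2 (limma, adjusted p = 0.0313). Of the 7 losses, those without liver-Cpr-null pool 1 or 3 left the value at 0.28 (limma, adjusted p = 0.0511 and 0.0515), since these pools enter only the shared estimate of the spread and the adjustment.

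None of the 4 other members of the F1 head was called, and 3 of them were above 0 in both models. Atp5a1, the alpha subunit that alternates with beta in the head, had 0.15 ± 0.06 in liver-Cpr-null and 0.07 ± 0.06 in Cpr-low (limma, adjusted p = 0.232 and 0.584). Atp5c1, the rotating gamma subunit, had -0.14 ± 0.07 and -0.03 ± 0.07. Atp5d and Atp5e, the delta and epsilon subunits of the central stalk, had 0.02 ± 0.07 and 0.19 ± 0.09 in liver-Cpr-null and 0.12 ± 0.07 and 0.24 ± 0.09 in Cpr-low, none of them called. The median of the 5 head members was 0.15 in liver-Cpr-null and 0.12 in Cpr-low, beside -0.00 and 0.05 for the 12 other members. Among those, Atp5g3, a gene for the membrane ring, had -0.09 ± 0.06 and 0.00 ± 0.06.

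Atp5h, subunit d of the peripheral stalk that holds the head in place, was lower in liver-Cpr-null than in Cpr-low. Its signals were 6627, 6501 and 6217 in Cpr-lox, 6945.5, 6872 and 6871 in Cpr-low and 5840.1, 5736 and 6001 in liver-Cpr-null. The 3 models did not overlap, and here Cpr-lox lay in the middle. The log2 fold change was -0.23 ± 0.06 (limma, adjusted p = 0.0301), a fold of 0.85, with -0.14 ± 0.06 in liver-Cpr-null and 0.10 ± 0.06 in Cpr-low against Cpr-lox (limma, adjusted p = 0.236 and 0.428). A dimmer probe set of Atp5h had -0.18 ± 0.07 between the models (limma, adjusted p = 0.122 over probe sets). The call was lost without any 1 of the 6 pools compared (limma, adjusted p from 0.0529 to 0.0988).

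**Figure D3:**
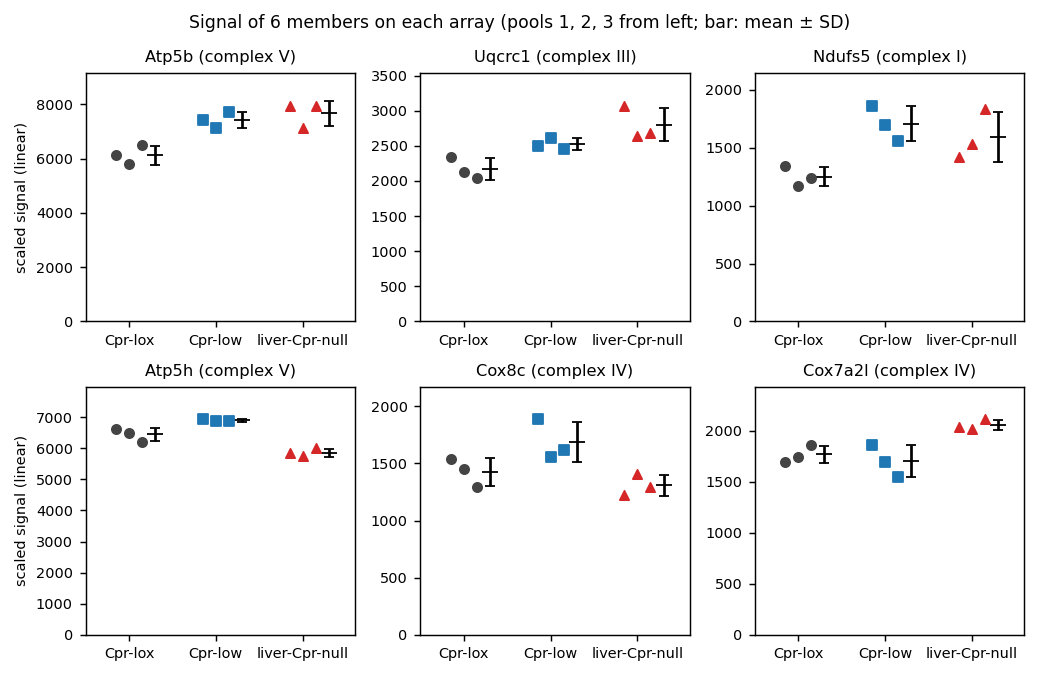
Scaled signal, on a linear axis from 0, of the 5 called members and of Cox7a2l on each array, with the mean and SD of the 3 pools of a model. Atp5b, Uqcrc1 and Ndufs5 have all 6 arrays of the altered models above the Cpr-lox arrays, and Atp5h and Cox8c are lowest in liver-Cpr-null by their means.

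Members whose arrays do not overlap between models were counted as well, as a description without a test. In liver-Cpr-null against Cpr-lox, 16 of 74 members (21.6%) lay higher on all 3 arrays and 9 (12.2%) lower, against 9.96% and 15.6% of all genes tested. In Cpr-low against Cpr-lox, 21 (28.4%) lay higher and 3 (4.05%) lower, against 10.9% and 10.6% of all genes. Of those 21, 6 were among the 12 tested members of complex IV, Cox5b, Cox6a1, Cox6b1, Cox6c, Cox8a and Cox8c. Between the models, 4 (5.41%) lay higher in liver-Cpr-null and 10 (13.5%) lower, against 10.8% and 25.9% of all genes. Signs were unevenly split: 51 of 74 members were above 0 in liver-Cpr-null and 53 in Cpr-low against Cpr-lox. Of all 8879 genes, 3102 and 5647 were above 0. The medians over members were 0.04, 0.06 and -0.02 in the 3 comparisons, beside -0.04, 0.04 and -0.08 over all genes, and the last member median turned to 0.04 with signals as deposited and 0.06 with a common median.

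Genes with several probe sets gave further detail. Of the tested members, 40 had several kept probe sets, and in 0 of them were 2 probe sets called in opposite directions. Fitted one by one, 4 of 136 member probe sets were called in liver-Cpr-null against Cpr-lox, where 6.67% of all probe sets were. In Cpr-low against Cpr-lox 2 were called (5.31% of all probe sets), and between the models 4 (8% of all probe sets). For Ndufc2, a membrane-arm subunit of complex I, the dimmer probe set had 718, 783 and 991 in Cpr-lox and 1276, 1006 and 1288 in liver-Cpr-null, a log2 fold change of 0.52 ± 0.13 (limma, adjusted p = 0.0305), while the brightest had 0.08 ± 0.07 (limma, adjusted p = 0.583). For Atp5k, subunit e of the membrane part of complex V, 1 of 3 probe sets passed there, at 0.26 ± 0.07 (limma, adjusted p = 0.0335), and the brightest had 0.19 ± 0.07 (limma, adjusted p = 0.173). Of the 74 tested members, 39 rest on a probe set whose ID carries a suffix for probes that can match several transcripts, and RefSeq names a pseudogene of 9 of the 78 members.

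Taking the hybridization date as a block changed the calls. In liver-Cpr-null against Cpr-lox 0 of 74 members were then called (limma), against 1.68% of all genes, and Uqcrc1 and Atp5b had 0.35 (adjusted p = 0.230) and 0.32 (adjusted p = 0.200). In Cpr-low against Cpr-lox 2 were called higher and 1 lower, against 12.3% of all genes: Ndufs5 at 0.57 (adjusted p = 0.0263), Cox8c at 0.40 (adjusted p = 0.0476) and Ndufb11, a membrane-arm subunit of complex I, at -0.39 (adjusted p = 0.0190). These Cpr-low values are those of pool 1 alone, which the fit assumes to vary like the other pools. With no block, Cox8c had 0.24 (limma, adjusted p = 0.207) and 0.16 without Cpr-low pool 1 (limma, adjusted p = 0.516). Ndufb11 had -0.19 with no block (limma, adjusted p = 0.256), -0.09 without Cpr-low pool 1 (limma, adjusted p = 0.651) and -0.0034 with its specific probe set (limma, adjusted p = 0.985). Between the models Cox7a2l was the 1 member called, beside 5.79% of all genes. Within the first date, Cpr-low has 1 array, so no spread between its pools enters there and Ndufs5 is given as a value only, 0.57. Within the second date Cox7a2l was the 1 member called (0.34, limma, adjusted p = 0.0454). With signals as deposited or scaled to a common median, Cox7a2l was likewise the 1 member called between the models, at 0.34 and 0.36, higher in liver-Cpr-null, and Atp5h and Cox8c lost their calls.

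Other genes of the pathway were counted in the same fits, from lists drawn up with earlier results of these data known. Of all genes tested, 7.1% were called in liver-Cpr-null and 5.79% in Cpr-low against Cpr-lox, and 8.42% between the models. Of 10 electron carriers and entry points, 0 were called higher and 1 lower in liver-Cpr-null, 1 higher and 2 lower in Cpr-low against Cpr-lox, and 0 higher and 2 lower between the models. Gpd2, the mitochondrial glycerol-3-phosphate dehydrogenase that feeds coenzyme Q, fell from a signal of 547 ± 78.1 (SD, n = 3) in Cpr-lox to 326 ± 7.23 in liver-Cpr-null and 284 ± 35.7 in Cpr-low (log2 fold changes of -0.71 ± 0.11 and -0.90 ± 0.11). Etfdh, which passes electrons from fatty acid oxidation to coenzyme Q, fell in Cpr-low (-0.53 ± 0.12, limma, adjusted p = 0.0164), and Sqor, which does so from sulfide, rose there (0.41 ± 0.10, limma, adjusted p = 0.0339). Cytochrome c itself, Cycs, had -0.06 ± 0.09 and -0.13 ± 0.09. Of 29 assembly factors, 0 were called against Cpr-lox in either model (limma; at an unadjusted p under 0.05, 3 higher and 1 lower in liver-Cpr-null, 2 and 1 in Cpr-low), and 2 were higher in liver-Cpr-null than in Cpr-low, among them the copper chaperone Cox17 (0.41 ± 0.11, limma, adjusted p = 0.0343). Of 8 genes of coenzyme Q synthesis, Coq8a was the 1 called against Cpr-lox, higher in both models (0.48 ± 0.11 and 0.72 ± 0.11).

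Of the neighbouring mitochondrial lists, all but that of biogenesis factors had members called in both directions over the 3 comparisons. In liver-Cpr-null and Cpr-low against Cpr-lox and between the models, 23.5%, 11.8% and 17.6% of the TCA cycle list were called. In the same order the shares were 23.1%, 0% and 0% for biogenesis factors and 4%, 4% and 16% for import and carriers. They were 14.3%, 14.3% and 0% for redox defence, against 7.1%, 5.79% and 8.42% of all genes. Of 17 genes of the TCA cycle and its entry, 3 rose and 1 fell in liver-Cpr-null, 0 rose and 2 fell in Cpr-low, and 3 were higher and 0 lower in liver-Cpr-null than in Cpr-low. Idh2, the NADP-dependent isocitrate dehydrogenase of mitochondria, rose in liver-Cpr-null by 0.72 ± 0.13 and had -0.04 ± 0.13 in Cpr-low, and Pcx, pyruvate carboxylase, fell in both (-0.60 ± 0.09 and -0.43 ± 0.09). Of 13 tested factors of mitochondrial biogenesis, 0 rose and 3 fell in liver-Cpr-null, the coactivator Ppargc1b (-0.44 ± 0.10), the receptor Esrra (-0.25 ± 0.07) and Yy1 (-0.35 ± 0.09), and 0 were called in Cpr-low (limma; 0 higher and 1 lower at an unadjusted p under 0.05). Of 25 genes of import and carriers, 0 rose and 1 fell in each model against Cpr-lox and 4 were higher between the models, with Timm17a, a subunit of the inner membrane translocase, at 0.69 ± 0.08. Of 7 redox defence genes, Gpx4 rose in liver-Cpr-null (0.36 ± 0.08) and Nnt, the transhydrogenase, fell in Cpr-low (-0.49 ± 0.11). In liver-Cpr-null, Nnt had -0.36 and was not called.

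Families of large complexes outside the chain gave other counts. In liver-Cpr-null and Cpr-low against Cpr-lox and between the models, 0%, 2.74% and 5.48% of mitochondrial ribosomal proteins were called. In the same order the shares were 0%, 8.89% and 20% for cytosolic ribosomal proteins and 13.5%, 37.8% and 5.41% for proteasome subunits. They were 7.1%, 5.79% and 8.42% over all genes. Of 73 tested mitochondrial ribosomal proteins, 0 were called in liver-Cpr-null (limma; 6 higher and 4 lower at an unadjusted p under 0.05), 2 fell in Cpr-low, and 2 were higher and 2 lower between the models. Of 45 cytosolic ribosomal proteins, 0 were called in liver-Cpr-null (5 higher and 1 lower unadjusted), 4 fell in Cpr-low, and 9 were higher in liver-Cpr-null than in Cpr-low. Of 37 proteasome subunits, 1 rose and 4 fell in liver-Cpr-null, 14 fell in Cpr-low, and 2 were higher between the models. Their medians in Cpr-low were -0.05, -0.10 and -0.27, beside 0.06 for the oxidative phosphorylation members. No test compared the lists with each other.

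**Figure D4:**
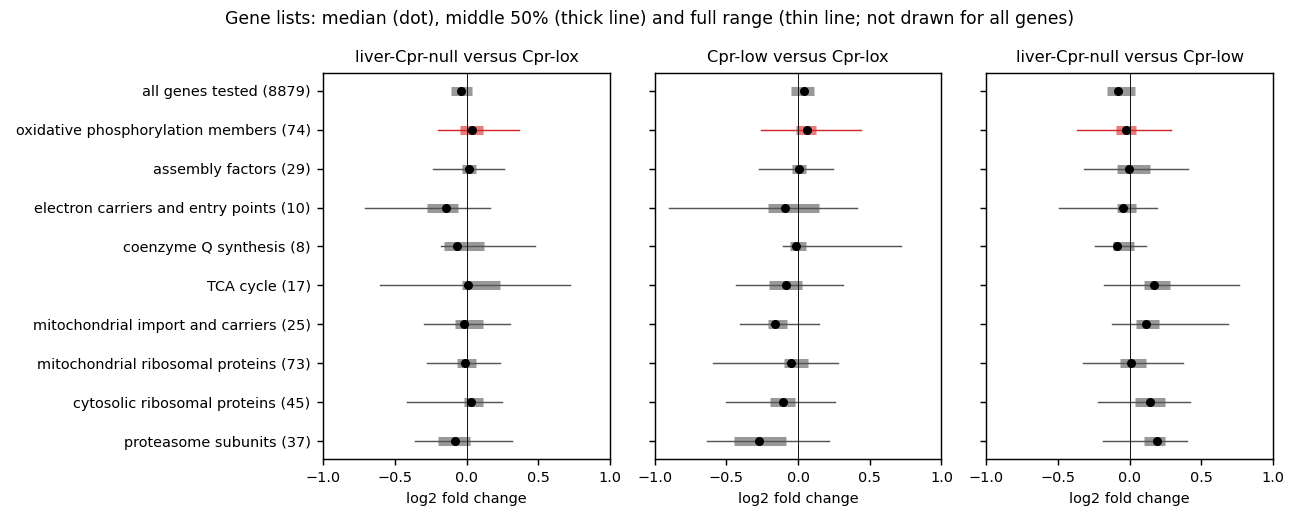
Log2 fold changes over gene lists in the 3 comparisons, with the median, the middle 50% of the genes and the full range, and the number of tested genes in brackets. The oxidative phosphorylation members (red) have medians of 0.04, 0.06 and -0.02, of which the last turns to 0.04 with signals as deposited and to 0.06 with a common median, and the proteasome subunits have -0.27 in Cpr-low.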

How the data were processed

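The authors deposited 1 linear signal intensity per probe set and array, in whole numbers, for 9 arrays. The sources used here do not give how probes were summarised, background corrected and arrays scaled. Among probe sets with a median above 1000, 24.6% had 2 or more arrays with equal values around the median, against 0.351% at the lowest ranks, which narrows the spread that the tests use. Depth has no counterpart on arrays, and their number limits the precision.

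Signals were scaled to a common 2% trimmed mean and transformed to log2(signal + 16). Of 22690 probe sets, the upper 60% by mean were kept, and the brightest per gene left 8879 genes. A single linear model of the 9 arrays was fitted in limma 3.58.1 under R 4.3.3 (lmFit, eBayes with an intensity trend, two-sided), with Benjamini-Hochberg adjustment over the 8879 genes and an adjusted p under 0.05 as a call. Symbols came from GEO's platform annotation. All 78 gene numbers matched RefSeq names. Promoters are RefSeq's (GRCm38.p6), without mouse chromosome 18. The code was tested on simulated data.

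Oxidative phosphorylation as a subject, its symbol rule and the other lists were chosen with earlier results of these data known, although the symbol rule itself uses no measured value. Members named were those called, the extremes of each complex and comparison, the brightest, core subunits, tissue isoforms, non-subunits and those whose probe sets disagree. From other lists up to 3 called genes were eligible, and Cycs, Cox6c, Cox7c, Uqcr11, Uqcrq, Atp5c1, Atp5d, Atp5e, Ndufb11 and Ndufa12 were added after their values were seen. The gene of Cpr was not analysed here. Alternatives changed the pseudocount (1, 64), scaling, filter, trend, probe set choice, blocks and arrays used. Plots used matplotlib 3.10.9 in Python 3.11.15.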

Additional observations from a re-analysis of the deposited data

How the results depend on the processing

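Single members were followed over the settings for Atp5b, Uqcrc1, Ndufs5, Atp5h, Cox8c, Cox7a2l, Ndufb11, Ndufc2 and Atp5k. None of their values turned its direction while called. The counts of calls (2, 2 and 2 for liver-Cpr-null against Cpr-lox, Cpr-low against Cpr-lox and liver-Cpr-null against Cpr-low) and the medians of log2 fold changes moved as follows, and the cause was not tested. With signals scaled to a common median, the counts were 1, 0 and 1 and the member medians 0.079, 0.012 and 0.062. Between the models the medians were then 0.095, 0.046, 0.079, 0.00075 and 0.050 for complexes I to V, in Cpr-low 0.059 for complex IV and 0.024 for complex V, and in liver-Cpr-null 0.058 for complex V. With signals as deposited, the count was 0 in Cpr-low and 1 between the models, with member medians of 0.023 and 0.038, and between the models 0.071, 0.021, 0.054, -0.024 and 0.025 for complexes I to V. Complex V in Cpr-low had 0.035. The sign of the member median between the models thus depended on the scaling. With quantile normalization, 1 member was called in liver-Cpr-null, and complexes I, II and V had -0.055, -0.101 and -0.076 between the models.

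With the hybridization date as a block, 0 members were called in liver-Cpr-null against Cpr-lox and 1 between the models. The liver-Cpr-null median was 0.00056, with -0.020, -0.065, 0.117 and -0.042 for complexes I, II, IV and V, and in Cpr-low complexes I and V had -0.024 and 0.030, as they did within the first date (1 member past the threshold, with 1 Cpr-low array and so no test between pools). Within the second date 1 was called. With the fluidics round as a block, chosen after seeing the data, 0 were called in liver-Cpr-null and 0 between the models. The liver-Cpr-null median was then -0.045, with -0.056, -0.058, 0.102 and -0.056 for complexes I, II, IV and V. Complex I had -0.053 between the models, and in Cpr-low complexes I and V had -0.024 and 0.030. The scan date as a block was not run, because it could not be fitted against Cpr-lox.

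Specific probe sets alone left 1 call between the models and 0.014 for complex V there, the mean of kept probe sets gave -0.044 for complex IV there, and no filter, or the 2 models alone, left 1 call in Cpr-low. Leaving out each pool gave counts of 0 to 2 in each comparison. Member medians ran from 0.0019 to 0.063 in liver-Cpr-null, from 0.034 to 0.078 in Cpr-low and from -0.046 to 0.003 between the models. Complex II ran from -0.022 to 0.076 in liver-Cpr-null and from 0.0064 to 0.098 in Cpr-low. Complex V ran from 0.00058 to 0.062 in liver-Cpr-null and from -0.060 to 0.018 between the models. Same-numbered pools of different models correlated at -0.21 to 0.465 in their deviations, and differently numbered pools at -0.429 to 0.263. These ranges overlap and do not settle whether the numbers pair the pools, and the main fit has no such block. With the pool number as a replicate block, 4 members were called between the models (Ndufa12 and Ndufa5 besides Atp5h and Cox8c). The counts against Cpr-lox stayed at 2 and 2. Among these alternatives, the share of all genes called was counted for the hybridization date block only.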
